A study of Mus musculus with 6 samples.

Results

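In the spleen of a phenylhydrazine (PHZ)-treated mouse, C1q-high macrophages that lay among many erythroid cells were compared with C1q-high macrophages that lay among few or none. A macrophage was a segmented cell with 10 or more counts of C1qa, C1qb and C1qc together, the genes of the recognition subunit of complement C1. An erythroid cell was a segmented cell with 8 or more counts of Slc4a1 (band 3, the anion exchanger of the erythrocyte membrane) and Hemgn (hemogen, a nuclear protein of erythroid cells) together and with 0 C1q counts. Of the 94582 cells in the section, 9045 were macrophages by this rule and 13629 were erythroid cells. Of these macrophages, 158 had 30 or more erythroid cells within 40 µm of their center and are called erythroid-rich here. Another 5679 had 4 or fewer, of which 4410 had 0, and are called erythroid-poor. The remaining 3208 lay between both limits.

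The section of 5 µm came from a wild-type mouse that received 40 mg/kg PHZ by intraperitoneal injection, 2 times per day for 2 days, and whose spleen was then fixed in formalin and embedded in paraffin. PHZ lyses erythrocytes, and the spleen of a mouse answers such anemia with erythropoiesis of its own. The other sections compared came from an untreated adult wild-type spleen, a wild-type fetal liver at embryonic day (E) 14.5 and a wild-type bone marrow at postnatal day (P) 8, all measured with the same panel of 477 genes. These sections shared 1 or 2 cell names with the PHZ-treated spleen. Each condition was 1 section, so no comparison between conditions or between macrophages could be tested, and cells of 1 section are not replicates. Intervals below are exact 95% Poisson or binomial intervals and cover counting error only. All groups were chosen by counts of C1qa, C1qb, C1qc, Slc4a1 and Hemgn, so the values of these genes are given as a description.

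An erythroblastic island (EBI) is a central macrophage with erythroblasts attached to it. The macrophage holds the erythroblasts through adhesion molecules, supplies iron and growth factors, and engulfs the nuclei that they extrude. In the spleen, macrophages of the red pulp also take up aged erythrocytes and return their iron to the blood, whereas other macrophages lie in the marginal zone around the lymphoid follicles and within them. The comparison addresses how C1q+ macrophages inside the erythroid tissue of the stressed spleen differ from those outside it.

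**Figure D1:**
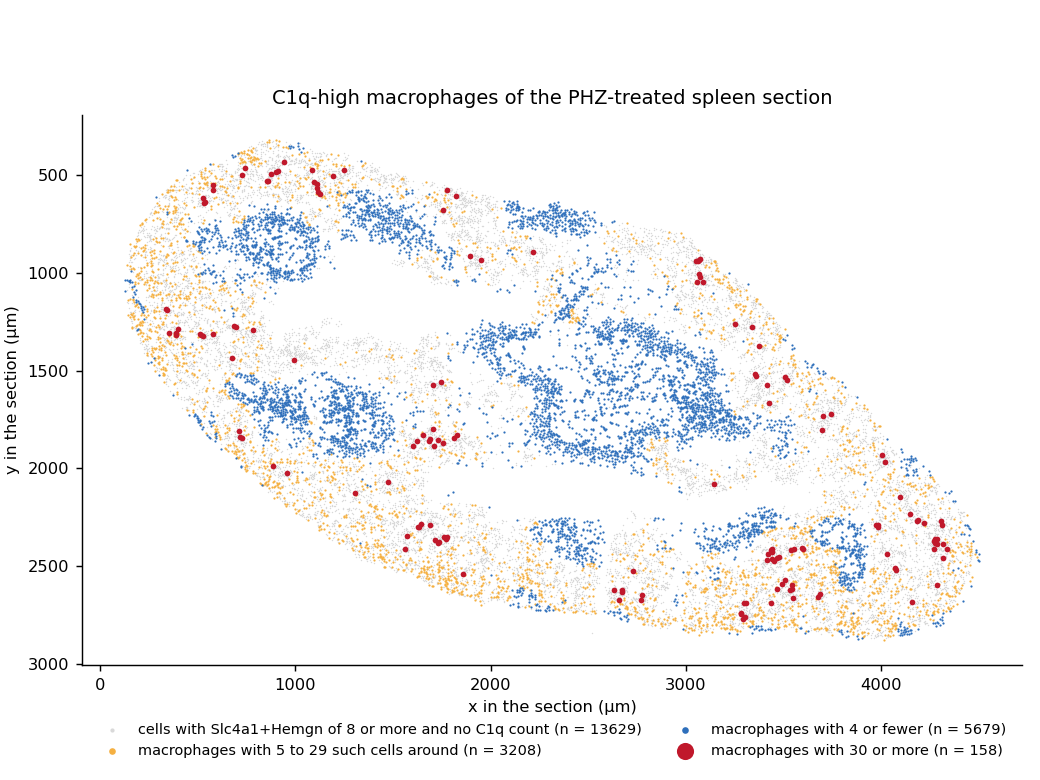
Positions of C1q-high macrophages in the PHZ-treated spleen section, with both axes in µm and each point 1 segmented cell. The 158 erythroid-rich macrophages were scattered through the erythroid tissue, whereas many of the 5679 erythroid-poor ones formed rings and patches with few erythroid cells.

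Erythroid-rich macrophages did not lie in 1 place. Linked at distances of up to 80 µm, they fell into 50 separate clumps, of which the largest held 13 cells. Their nearest erythroid cell lay at a median of 9.29 µm, against 75.2 µm for erythroid-poor macrophages. They had a median of 96 cells of any kind within 40 µm, and erythroid-poor ones had 72. Lymphocytes, taken as cells without C1q counts and with 2 or more counts of Cd3d, Cd3e, Cd4, Cd8a, Cxcr5 and Satb1 together, were few around both groups at the median, 1 and 2. Yet 1418 erythroid-poor macrophages had 10 or more lymphocytes around them and no erythroid-rich macrophage had (0 of 158). The erythroid-poor group thus held macrophages of lymphoid surroundings next to 1856 macrophages with 0 lymphocytes around them. This gate rests mostly on T cell genes and can miss B cells, so 0 lymphocytes means 0 by this gate, here and below. At the limits of the rule, 26 macrophages had exactly 30 erythroid cells around them and 24 had 29, 247 had 4 and 240 had 5, and 1329 cells had exactly 10 C1q counts whereas 1583 had 9 and were left out.

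Both groups had similar depth of different makeup. Erythroid-rich macrophages held a median of 171.5 gene counts and erythroid-poor ones 165, over median areas of 71.3 and 86.9 µm². The 20 genes of the erythroid list made up 36.0% (95% interval 35.5 to 36.6) of the counts in erythroid-rich and 6.37% (6.33 to 6.42) in erythroid-poor macrophages. Counts of all other genes came to 115 and 174 per macrophage. Genes were therefore compared as shares of the counts outside the erythroid list, and a ratio per macrophage is lower than such a ratio by 0.60 on the log2 scale for every gene. The negative control probes gave 2 counts in all erythroid-rich and 27 in all erythroid-poor macrophages. Per 100 macrophages, these were 1.27 and 0.475 counts.

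The C1q counts were set by the rule. C1qb averaged 6.89 (95% interval 6.48 to 7.31) counts per erythroid-rich and 8.61 (95% interval 8.54 to 8.69) per erythroid-poor macrophage, and the median of the summed C1q counts was 12 and 15. Cd68, a lysosomal protein of macrophages that the rule did not use, averaged 2.80 and 3.86, against 0.239 and 0.309 in the cells without C1q counts around each group.

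Of 308 genes with 50 or more counts over both groups, 58 were at least 1.5-fold higher in erythroid-rich macrophages, 18.8% of the genes compared, and 118 were at least 1.5-fold lower, 38.3%. With the whole counting interval beyond 1.5-fold, these numbers were 44 (14.3%) and 66 (21.4%). In the smaller group, 63 of the 308 genes had 0 counts and 54 had 1 to 3, and for 42 of the former no ratio could be given. The median log2 ratio of the others was -0.33, and -0.81 if those 42 genes are placed lowest, so a gene with a ratio of 0 stood above most genes. Per macrophage, 41 genes (13.3%) were higher and 167 (54.2%) lower, and as shares of the counts of all genes 43 (14%) and 163 (52.9%). Of the 58 higher genes, 20 were the erythroid list. Another 19 had at least as many counts per erythroid cell as per erythroid-poor macrophage. The other 19 had fewer counts per erythroid cell, and 8 of these had their whole interval beyond 1.5-fold. The 8 were Cd163, Cd5l, Mrc1, Adgre1, Cd36, Kit, Ndufs8 and Tmem147. This split was by counts per cell, and erythroid cells averaged 54.3 non-erythroid counts against 174. Per erythroid cell, Cd36, Kit, Ndufs8 and Tmem147 averaged 1.36, 0.175, 1.07 and 0.361, against 1.62, 0.204, 1.09 and 0.376 per erythroid-poor macrophage.

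Markers of resident macrophages split into higher and lower genes. Of 11 genes in this list, all surface or lysosomal membrane proteins except the secreted Cd5l, 10 had enough counts, 4 were higher (Cd163, Cd5l, Mrc1 and Adgre1), 4 were lower (Timd4, Siglec1, Folr2 and Marco) and 2 lay between (Cd68 and Vcam1). Clec4f, a lectin of Kupffer cells, was left out by its low counts. The median log2 ratio of the list was -0.02. Among all genes compared, 18.8% were higher and 38.3% lower.

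Cd163, the scavenger receptor for hemoglobin bound to haptoglobin, had the highest ratio of this list. It averaged 0.316 (95% interval 0.235 to 0.417) counts per erythroid-rich and 0.0491 (95% interval 0.0435 to 0.0552) per erythroid-poor macrophage, from 50 and 279 counts. Its log2 ratio was 3.29 (95% interval 2.82 to 3.73), and 2.69 per macrophage. Along the number of erythroid cells, it averaged 0.0438 with 0 erythroid cells around them, 0.0678 with 1 to 4, 0.188 with 5 to 14, 0.182 with 15 to 29 and 0.316 with 30 or more. On the left side of the section the means were 0.307 and 0.0358 for erythroid-rich and erythroid-poor macrophages, and on the right side 0.325 and 0.0615. Each side thus showed the same order, but sides of 1 section are not replicates. Cd163 was still a sparse gene, with a count in 16.5% of erythroid-rich and 3.35% of erythroid-poor macrophages. When every macrophage was thinned to 100 counts, which left out 18 and 903 shallower ones, these shares were 7.86% (95% interval 3.99 to 13.6) and 2.26% (1.86 to 2.72). In erythroid cells Cd163 averaged 0.00888 counts.

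Cd5l, a secreted protein of tissue macrophages that binds lipids, averaged 2.52 (95% interval 2.28 to 2.78) counts per erythroid-rich and 0.927 (95% interval 0.902 to 0.952) per erythroid-poor macrophage, with a log2 ratio of 2.04 (95% interval 1.89 to 2.19). Its means were 0.757 with 0 erythroid cells around them, 1.51 with 1 to 4, 2.32 with 5 to 14, 2.42 with 15 to 29 and 2.52 with 30 or more. Most of this difference lay between 0 and 5 to 14 erythroid cells, and the intervals of the upper 3 bins overlapped. Mrc1, the mannose receptor CD206, averaged 2.49 (95% interval 2.25 to 2.75) and 1.51 (95% interval 1.48 to 1.54), with a log2 ratio of 1.32 (95% interval 1.17 to 1.47). Its level was already 2.18 with 1 to 4 erythroid cells, against 1.32 with 0.

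Adgre1, which encodes the macrophage marker F4/80, had a smaller difference. It averaged 0.582 (95% interval 0.469 to 0.714) and 0.469 (95% interval 0.451 to 0.487), whose intervals overlapped per macrophage, and its log2 ratio was 0.91 (95% interval 0.60 to 1.21) as a share and 0.31 per macrophage, below 1.5-fold on the latter scale. Its highest mean, 0.753, was that of macrophages with 1 to 4 erythroid cells. Against those alone, its log2 ratio was 0.20 as a share and -0.37 per macrophage, so that its direction turned with the scale. Cd163 and Cd5l lay beyond 1.5-fold against them on both scales, with 2.80 and 1.31 as shares and 2.22 and 0.73 per macrophage. Mrc1 did so as a share, with 0.76, but not per macrophage, with 0.19.

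**Figure D2:**
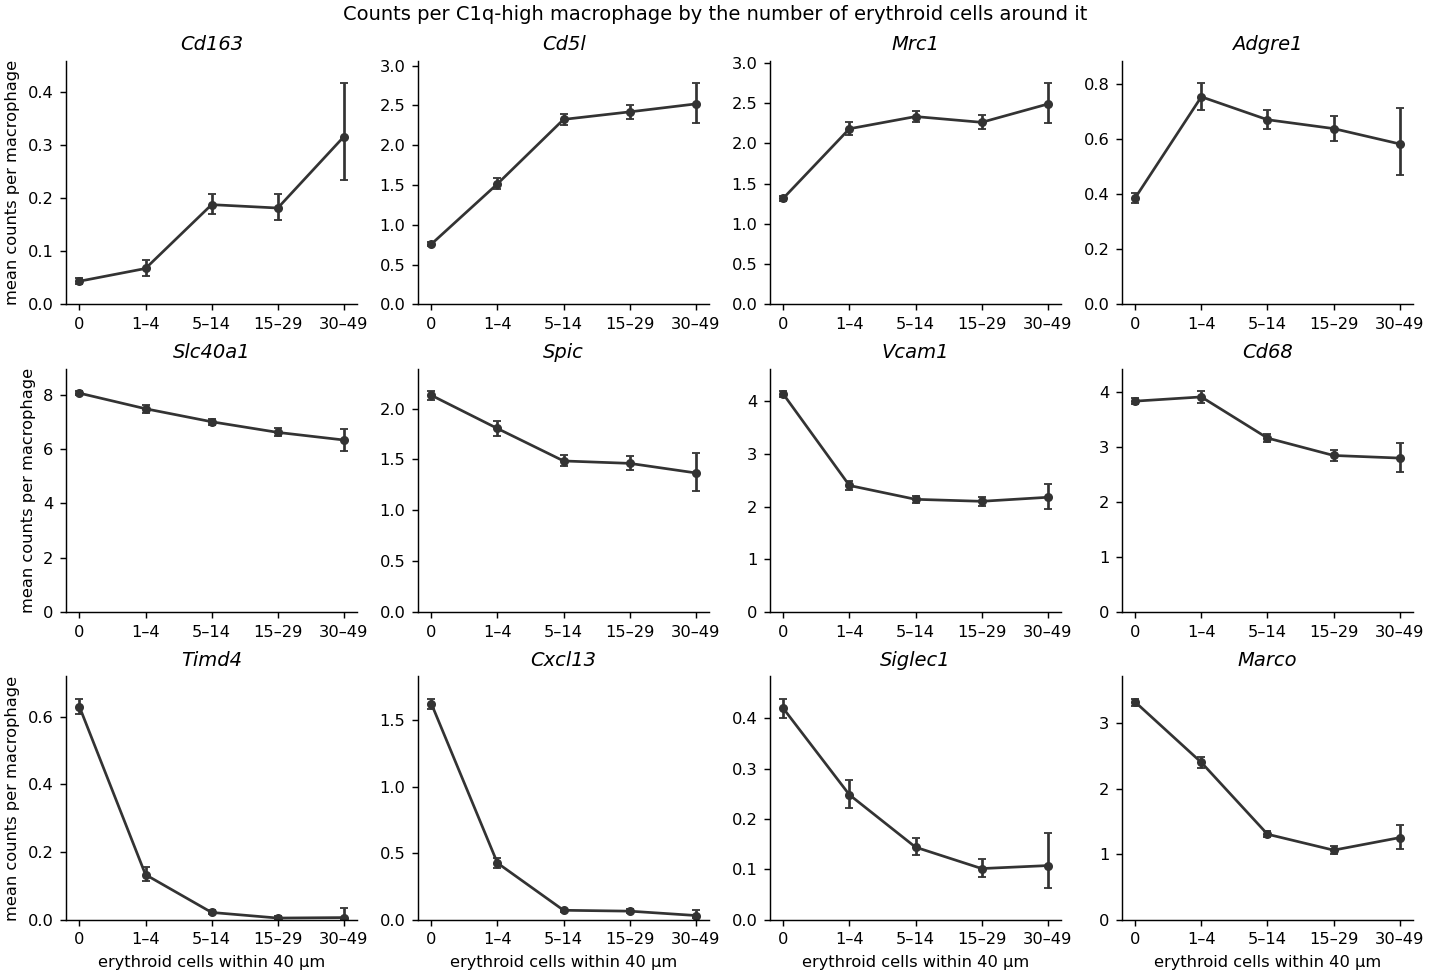
Mean counts per C1q-high macrophage (y axis, starting at 0) in 5 bins of the number of erythroid cells within 40 µm (x axis) for 12 genes, with exact 95% Poisson intervals. Cd163 and Cd5l were highest in the last bin, and Timd4 and Cxcl13 were close to 0 from 5 erythroid cells on. Slc40a1 lay between 6.33 and 8.05 in every bin.

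Timd4, the phosphatidylserine receptor TIM-4 with which macrophages bind dying cells, was nearly absent from erythroid-rich macrophages. It gave 1 count in 158 erythroid-rich and 2946 counts in 5679 erythroid-poor macrophages, a log2 ratio of -5.76 (95% interval -11.06 to -3.28). Its means were 0.630 with 0 erythroid cells around them, 0.133 with 1 to 4, 0.0215 with 5 to 14, 0.00496 with 15 to 29 and 0.00633 with 30 or more. It was detected in 24.1% of erythroid-poor macrophages, and after thinning to 100 counts in 16.9% of those and in 0 of 140 erythroid-rich ones (95% upper limit 2.60%). In the C1q-free cells around erythroid-poor macrophages it averaged 0.0207. Among erythroid-poor macrophages, it averaged 0.653 in those with 10 or more lymphocytes around them and 0.415 in those with 0.

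Siglec1 (CD169), a sialic acid-binding adhesion receptor, averaged 0.108 and 0.382, with a log2 ratio of -1.23 (95% interval -2.01 to -0.54). Marco, a scavenger receptor known from marginal zone macrophages, averaged 1.25 and 3.12, with a ratio of -0.71 (95% interval -0.92 to -0.51). Its direction turned with the erythroid-poor macrophages chosen. Those with 0 lymphocytes around them averaged 4.77, and those with 10 or more averaged 1.04, against which the log2 ratio was 0.44 as a share and 0.26 per macrophage. Folr2, the folate receptor beta, had 4 counts in erythroid-rich macrophages, and its interval (-2.93 to 0.32) included 0 and its direction turned under another setting. Vcam1, the adhesion molecule that binds erythroblasts through integrin, averaged 2.18 and 3.75, with a ratio of -0.18 (95% interval -0.34 to -0.03) as a share. Per macrophage, Vcam1 was more than 1.5-fold lower. It was highest with 0 erythroid cells around, 4.14, and lay between 2.10 and 2.40 in the other bins.

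Among genes of iron and heme handling, Trf and Cp differed by over 1.5-fold. Of 7 genes, 6 had enough counts, 1 was higher, 1 was lower and 4 lay between, with a median log2 ratio of 0.14, beside 18.8% higher and 38.3% lower among all genes compared. Slc40a1, the iron exporter ferroportin, averaged 6.33 (95% interval 5.94 to 6.73) and 7.92 (95% interval 7.85 to 8.00) counts per macrophage, and its log2 ratio was 0.28 as a share and -0.32 per macrophage, so that its direction depended on the scale. Spic, the transcription factor of red pulp macrophages, averaged 1.37 and 2.06, with a ratio of 0.01 (95% interval -0.19 to 0.20) as a share and -0.59 per macrophage. Selenop, a secreted selenium carrier, had a ratio of 0.14 as a share and -0.46 per macrophage.

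Trf, which encodes the plasma iron carrier transferrin, averaged 0.734 and 0.654, with a log2 ratio of 0.77 (95% interval 0.49 to 1.03) as a share and 0.17 per macrophage, and erythroid cells averaged 0.0686. With 20 or more C1q counts required, which left 12 erythroid-rich macrophages, the ratio of Trf was -0.084. Hp, which encodes haptoglobin, had 14 counts in erythroid-rich macrophages and a ratio of 0.13 (95% interval -0.75 to 0.89). Cp, the ferroxidase ceruloplasmin, was lower, with 0.0570 and 0.916 counts per macrophage and a ratio of -3.41 (95% interval -4.54 to -2.48). Its mean was 1.02 with 0 erythroid cells around them, 0.559 with 1 to 4, 0.235 with 5 to 14, 0.154 with 15 to 29 and 0.0570 with 30 or more. Hpx, which encodes hemopexin, had too few counts.

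Of 5 regulators of macrophage identity, 4 lay within 1.5-fold as shares and Ikzf2 was lower, where 38.3% of all genes were lower and 18.8% higher. Per macrophage, the median log2 ratio of the list was -0.72, past 1.5-fold lower, beside -0.91 for all genes with a ratio. Maf had a log2 ratio of -0.12 and Tet2 of 0.27, both transcription or chromatin regulators. Nr1h3, the liver X receptor alpha, averaged 0.266 and 0.504, with a ratio of -0.32 (95% interval -0.80 to 0.11). Ikzf2, a zinc finger factor also found in T cells, had 4 counts in erythroid-rich macrophages and a ratio of -1.18 (95% interval -3.06 to 0.19), whose direction turned under other settings.

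Of 8 growth factors and cytokines, 0 were higher and 3 were lower as shares, the latter close to the 38.3% of all genes. Per macrophage, the median log2 ratio of these 8 was -0.81, past 1.5-fold lower, beside -0.91 for all genes with a ratio. Igf1, which encodes insulin-like growth factor 1, averaged 0.861 and 1.34, with a log2 ratio of -0.04 (95% interval -0.29 to 0.21). Il18 averaged 0.665 and 1.18, with a ratio of -0.23 (95% interval -0.52 to 0.05). Il10 and Vegfa had ratios of 0.32 and -0.20 from 21 and 22 counts in erythroid-rich macrophages. Il1b, Pdgfb and Pdgfa were lower with -1.03, -1.17 and -1.95, from 16, 5 and 4 counts, and the direction of each turned under at least 1 other setting. Bmp2 had only 3 counts in erythroid-rich macrophages and a ratio of 0.52 (95% interval -1.78 to 2.10).

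**Figure D3:**
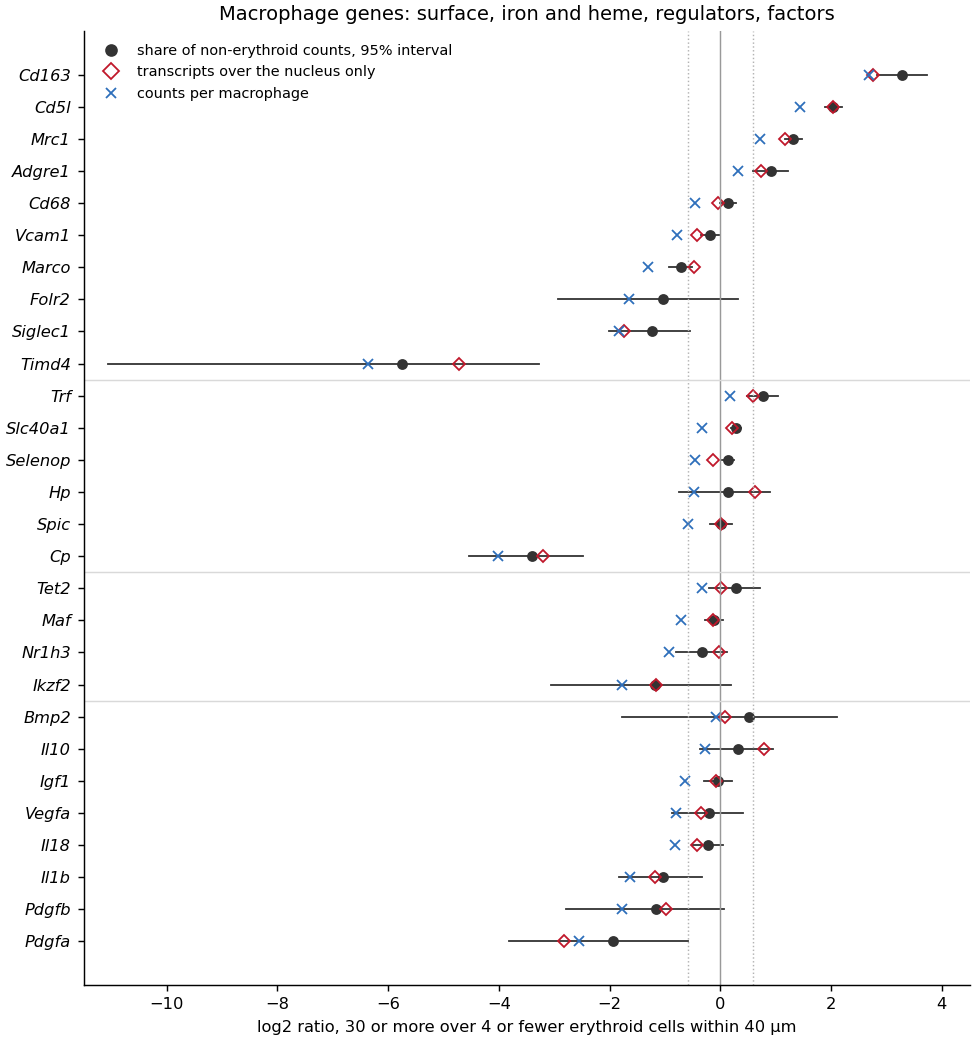
Log2 ratio of erythroid-rich over erythroid-poor macrophages for 28 genes of 4 macrophage lists (x axis), as shares of non-erythroid counts with 95% intervals (circles), from transcripts over the nucleus only (diamonds, not drawn for Folr2, which had 0) and per macrophage (crosses). Dotted lines mark 1.5-fold. Cd163, Cd5l and Mrc1 were higher by over 1.5-fold on all 3 scales. Timd4, Cp and Siglec1 were among the genes lower by over 1.5-fold on all 3.

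Of 6 genes of engulfment and digestion, 2 were higher, Timd4 was lower and 3 lay between, beside 18.8% higher and 38.3% lower among all genes. Cd36, a scavenger receptor for lipids, averaged 2.78 and 1.62, with a log2 ratio of 1.38 (95% interval 1.24 to 1.52), while erythroid cells averaged 1.36. Dnase2a, the lysosomal nuclease that digests the DNA of engulfed nuclei, averaged 0.835 and 0.809, with a ratio of 0.65 (95% interval 0.38 to 0.90) as a share and 0.05 per macrophage, and erythroid cells averaged 0.693. Ctss, the lysosomal protease cathepsin S, had a ratio of -0.43, Laptm5 of -0.44 and Mpeg1, which encodes perforin-2, of 0.13.

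Chemokines, monocyte genes and interferon genes were lower about as often as all genes compared, of which 18.8% were higher and 38.3% lower. Of 14 chemokines, 2 were higher and 5 lower. Ccl4 averaged 0.222 and 0.169, with a log2 ratio of 0.99 (95% interval 0.46 to 1.47), and Cxcl2 had a ratio of 0.83 (95% interval 0.26 to 1.34), but per macrophage these ratios were 0.39 and 0.23, within 1.5-fold. Cxcl13, the chemokine that attracts B cells into follicles, gave 5 and 7711 counts, with a ratio of -4.82 (95% interval -6.45 to -3.60). Of 20 monocyte and myeloid genes, 0 were higher and 9 lower, from S100a4 with -1.71 to Ms4a7 with 0.41. Of 11 genes of interferon response and innate sensing, 1 was higher and 5 were lower. The higher one was Rsad2, the antiviral protein viperin, with a ratio of 2.06 (95% interval 1.90 to 2.22), which averaged 2.13 in erythroid-rich macrophages and 2.94 in erythroid cells. The lowest was Psmb8, an immunoproteasome subunit, with -1.66 (95% interval -2.17 to -1.19).

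The rule set the erythroid genes of the surroundings, and those of the macrophages are given as a description. All 20 were higher in erythroid-rich macrophages, beside 18.8% of all genes compared, with a median log2 ratio of 3.20 against 2.66 in the C1q-free cells around both groups, from Ndufa4l2 with 0.97 to Rhd with 3.97. Without Slc4a1 and Hemgn, the medians of the other 18 genes were 3.17 and 2.62. Slc4a1 averaged 7.39 (95% interval 6.97 to 7.82) counts per erythroid-rich macrophage, 0.882 per erythroid-poor one and 10.5 per erythroid cell, and Hemgn averaged 3.96, 0.429 and 6.16. Their own sum reached 8 in 60.1% of erythroid-rich and 4.40% of erythroid-poor macrophages. Epor, the erythropoietin receptor, averaged 1.78 and 0.264 per macrophage, 1.81 in the C1q-free cells around the erythroid-rich ones and 2.00 in erythroid cells, and 64.1% of its counts in erythroid-rich macrophages lay over the nucleus. Of 8 genes of cycling cells and progenitors, 7 were higher, with a list median of 2.64, from Stmn1 with 1.42 to Ube2c with 3.16. Cd34, a surface protein of progenitors and vessels, had 0 against 202 counts. At the floor of 3 counts, Cd34 lay within 1.5-fold. Tfrc, the transferrin receptor, averaged 3.08 per erythroid-rich macrophage and 3.47 per erythroid cell.

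Of the 10 highest genes outside the erythroid list with 200 or more counts, 9 were at least as abundant in erythroid cells as in erythroid-poor macrophages. These were Prx with 3.94, Mylk3 with 3.53, Aqp1 with 3.32, Tspan8 with 3.29, Ube2c, Podxl with 2.89, Cenpf with 2.76, Tfrc with 2.67 and Diaph3 with 2.61. Cd163 was the exception. A segmented cell is a nucleus with an expanded outline, which can take up transcripts of the cells next to it and above or below it. How many of the erythroid transcripts were those of neighbors was not tested. Whether C1q counts in erythroid-rich outlines came from neighboring macrophages was not tested either. Of these outlines, 60.1% reached the erythroid limit of 8 counts themselves, and their summed C1q counts had a median of 12. In erythroid-rich macrophages, 51.8% of Slc4a1 counts lay over the nucleus, against 38.9% of C1qb and 33.5% of C1qc counts.

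The higher macrophage genes were sparse in the neighboring cells without C1q counts. This set leaves out neighboring macrophages by definition, and what these gave to the counts was not tested. In the C1q-free cells around erythroid-rich macrophages, Cd163 averaged 0.0101, Cd5l 0.138, Mrc1 0.0885 and Adgre1 0.0446 counts, against 0.316, 2.52, 2.49 and 0.582 in the macrophages. The log2 ratios between the surroundings of both groups were 0.74, 1.39, 0.58 and -0.45. Counting only transcripts over the nucleus of the macrophages, the log2 ratios of these 4 genes were 2.75, 2.04, 1.17 and 0.74. The median of the erythroid list hardly moved under this setting, with 3.16 over the nucleus and 3.20 over the whole outline. Among macrophages with 2 or fewer Slc4a1 and Hemgn counts of their own, of which 18 were erythroid-rich and 5112 erythroid-poor, the ratios as shares were 3.31 (95% interval 1.42 to 4.69) for Cd163, 1.45 (95% interval 0.76 to 2.07) for Cd5l, 1.96 (95% interval 1.54 to 2.35) for Mrc1 and 1.89 (95% interval 1.05 to 2.61) for Adgre1. These rest on 4, 21, 52 and 15 counts in the 18 cells, and per macrophage the ratios were 2.34, 0.49, 0.99 and 0.92.

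**Figure D4:**
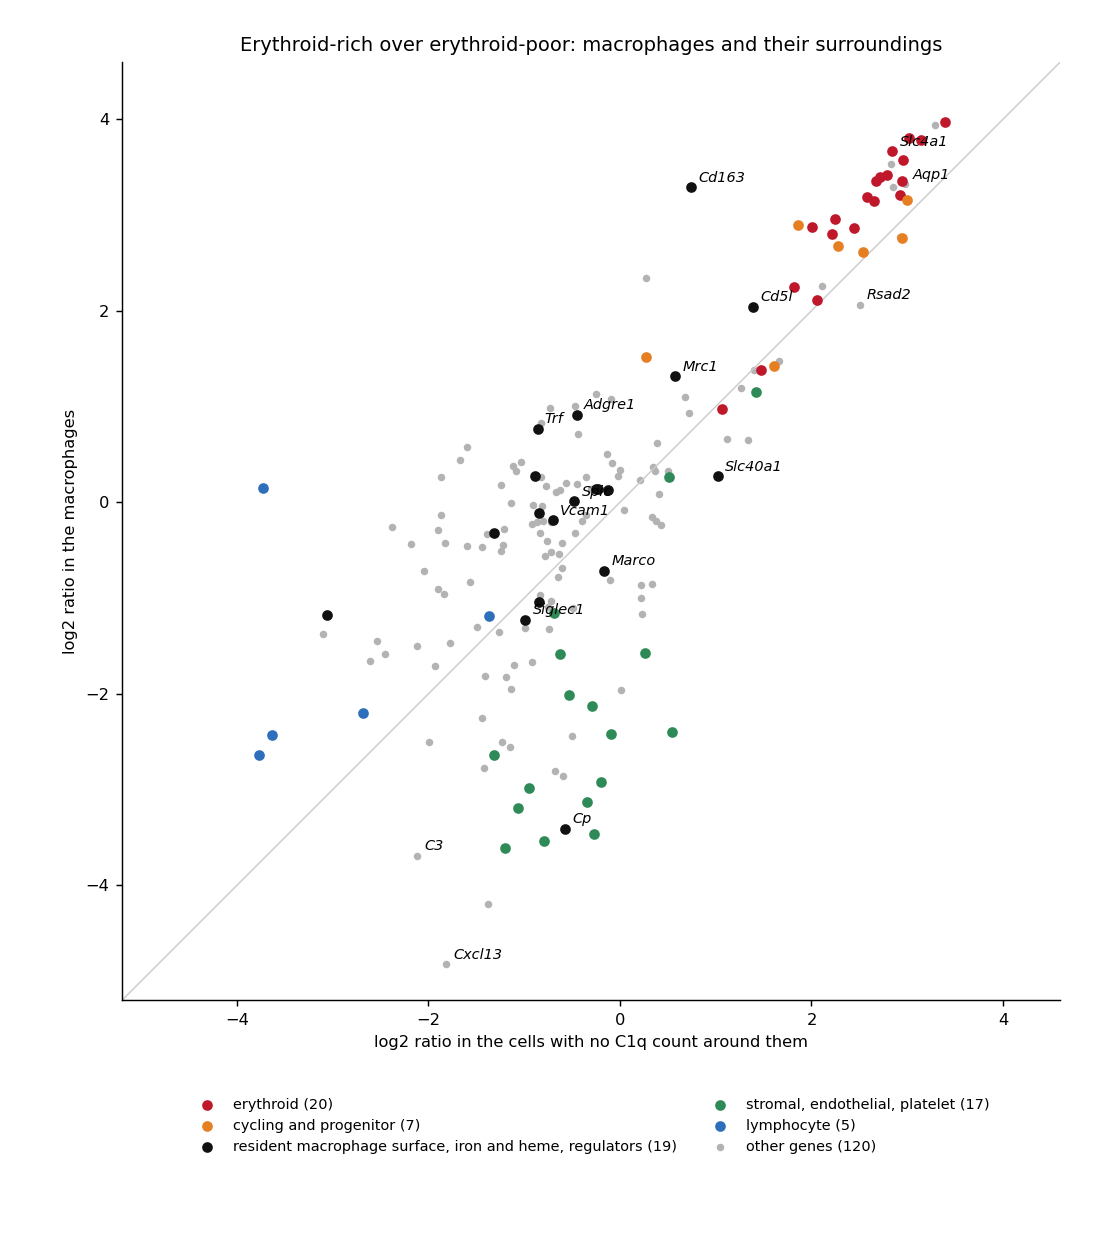
Log2 ratio of erythroid-rich over erythroid-poor macrophages (y axis) against the same ratio in the cells with no C1q count around each group (x axis), 1 point per gene with 50 or more counts over both groups and over 3 in erythroid-rich macrophages, colored by gene list. The line marks equal ratios. Erythroid genes lie high on both axes, Cd163 at 3.29 and 0.74, and stromal and platelet genes below the line.

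Most genes of other cell types were lower in erythroid-rich macrophages. The 18 stromal genes summed to 0.886 counts per erythroid-rich and 12.4 per erythroid-poor macrophage, and their summed counts ran from 0 to 3 in erythroid-rich and from 1 to 32 in erythroid-poor macrophages between the 10th and the 90th percentile. Of these genes, 14 were lower and 0 higher, from Myh11 with -5.01 (95% interval -10.31 to -2.53) to Tagln, an actin-binding protein of smooth muscle, with -2.64 among those with a count in both groups, and 9 had 0 counts in erythroid-rich macrophages. The 16 lymphocyte genes summed to 0.285 counts per erythroid-rich and 2.23 per erythroid-poor macrophage, with 13 of 15 lower, and Il2ra highest with 0.15. Satb1, a chromatin organizer of T cells, had 0 against 1418 counts and was at least 8.68-fold lower at a floor of 3 counts over the group. The 3 platelet genes summed to 0.222 counts per erythroid-rich and 2.05 per erythroid-poor macrophage and were all lower, Ppbp with -3.53, Mmrn1 with -2.93 (95% interval -8.23 to -0.44) from 1 count and Pf4 with -2.12. Neutrophil genes summed to 0.608 counts per erythroid-rich and 1.89 per erythroid-poor macrophage, with 0 of 15 higher and 7 lower, from Cxcr2 with -3.62 (95% interval -8.92 to -1.14) to Mpo with 0.33. Endothelial genes summed to 1.06 counts per erythroid-rich and 2.66 per erythroid-poor macrophage, with 9 of 15 lower, from Cav1 with -3.62 (95% interval -8.92 to -1.13), and 1 higher, Vwf with 1.15. Among all genes compared, 38.3% were lower.

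Among the 10 lowest genes with 200 or more counts and a count in both groups were Timd4, Myl9, Mylk, Myh11, Cxcl13, Igfbp3, Cxcr5, Ccdc80 and C3. Igfbp3 had a ratio of -4.20 and C3 of -3.69, from 4 and 11 counts in erythroid-rich macrophages. Mylk had -5.02 (95% interval -8.06 to -3.16) from 2 counts. Myl9 had -5.22 (95% interval -10.53 to -2.75), Cxcr5 -3.89 (95% interval -9.20 to -1.41) and Ccdc80 -3.86 (95% interval -9.16 to -1.37), each from 1 count. Of these, Myl9, Mylk and Myh11 belong to the contractile apparatus of smooth muscle, Cxcr5 is the receptor for Cxcl13 on B cells, and C3 is the central component of complement. Erythroid-poor outlines carried more counts of stromal, platelet and lymphocyte genes, and whether these counts and those of Cxcl13, C3 and Cp came from other cells was not tested. Timd4 averaged 0.519 in erythroid-poor macrophages and 0.0207 in the C1q-free cells around them, whereas Cxcl13 averaged 1.36 and 0.339 and Cd3e 0.240 and 0.432.

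Within the erythroid-poor group, the higher macrophage genes were not even. Those with 10 or more lymphocytes around them averaged 0.547 counts of Mrc1, 0.414 of Cd5l, 0.172 of Adgre1 and 0.0176 of Cd163. Those with 0 lymphocytes averaged 2.02, 1.21, 0.644 and 0.0523. The latter had 0 cells of the lymphocyte gate around them but also 4 or fewer erythroid cells. Against them, the log2 ratios were 1.13 for Mrc1, 1.88 for Cd5l, 0.68 for Adgre1 and 3.42 for Cd163 as shares. Per macrophage, they were 0.30, 1.06, -0.15 and 2.60, so that Mrc1 lay within 1.5-fold and the direction of Adgre1 turned. With 60 or more cells of any kind around the macrophages of both groups, they were 1.51, 2.11, 1.18 and 3.29 as shares and 1.11, 1.71, 0.78 and 2.89 per macrophage.

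In the untreated spleen, the same rule found 12060 macrophages but only 41 erythroid cells, and no macrophage had more than 3 of them around it. No erythroid-rich group existed there. As shares, in counts per 1000 non-erythroid counts, Cd163 stood at 3.65 in all untreated macrophages, 2.76 in erythroid-rich and 0.282 in erythroid-poor macrophages of the PHZ-treated spleen. Mrc1 stood at 17.3, 21.7 and 8.68 in the same order, and Cd5l at 11.2, 21.9 and 5.33. For Cd163 and Mrc1, the erythroid-rich share was thus nearer to the untreated one than the erythroid-poor share was. Timd4 went the other way with 2.94, 0.0551 and 2.98. Spic was lower in both PHZ groups, with 24.6, 11.9 and 11.8, and Marco was higher in both, with 3.14, 10.9 and 17.9. With 1 section each, these differences between spleens have no replicate check.

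The rule was then applied to sites of developmental erythropoiesis. In the E14.5 fetal liver, 2510 of 3112 macrophages were erythroid-rich and 72 erythroid-poor, and in the P8 bone marrow 196 of 592 were erythroid-rich and 193 erythroid-poor. Erythroid-poor macrophages had the larger outlines at both sites, with median areas of 83.5 against 51.2 µm² in the fetal liver and 145 against 51.7 µm² in the marrow. Their outlines carried many stromal counts, with the 18 genes summing to 48.6 per erythroid-poor and 1.45 per erythroid-rich macrophage in the fetal liver and to 72.5 and 4.01 in the marrow. Non-erythroid counts per macrophage were unequal, and a log2 ratio per macrophage was lower than that of shares by 0.86 in the fetal liver and 1.07 in the marrow for every gene. The part of stromal cells in these ratios was not tested. The median log2 ratio of all genes compared was 0.39 in the fetal liver (233 genes) and 0.01 in the marrow (195 genes). In the PHZ-treated spleen it was -0.33 among genes with a ratio. Cd5l was higher in erythroid-rich macrophages of all 3 sections, with log2 ratios of 2.04 in the PHZ-treated spleen, 4.26 (95% interval 3.69 to 4.90) in the fetal liver and 2.25 (95% interval 1.37 to 3.20) in the marrow, and per macrophage 1.44, 3.40 and 1.19. Adgre1 was also higher in all 3 as a share, with 0.91, 0.81 and 1.03, but per macrophage it averaged 1.81 and 1.86 in the fetal liver and 1.23 and 1.27 in the marrow, slightly lower in erythroid-rich ones. Cd163 was not, with 0.32 (95% interval -1.61 to 3.40) in the fetal liver, from 48 and 2 counts, and -1.88 (95% interval -2.41 to -1.38) in the marrow. Mrc1 had ratios of -0.70 and -0.52 there, opposite to the spleen.

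Some genes within 1.5-fold as shares in the PHZ-treated spleen were higher at both other sites. Spic had log2 ratios of 2.82 in the fetal liver and 4.09 in the marrow, Slc40a1 of 1.47 and 2.84, and Vcam1 of 1.5 and 3.75. Per macrophage, these were 1.96 and 3.03 for Spic, 0.62 and 1.78 for Slc40a1, and 0.64 and 2.68 for Vcam1. In the PHZ-treated spleen, Spic and Vcam1 were at least 1.5-fold lower on that scale. Timd4 was higher in erythroid-rich macrophages at both sites, with 2.26 (95% interval 1.82 to 2.73) and 2.57 (95% interval 1.97 to 3.20), and so was Marco, with 3.41 and 3.41. Per macrophage, Timd4 had 1.40 and 1.5, and Marco 2.55 and 2.34. What surrounds erythroid-poor macrophages differs between these organs, and its part in the ratios cannot be told apart from that of the organ.

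**Figure D5:**
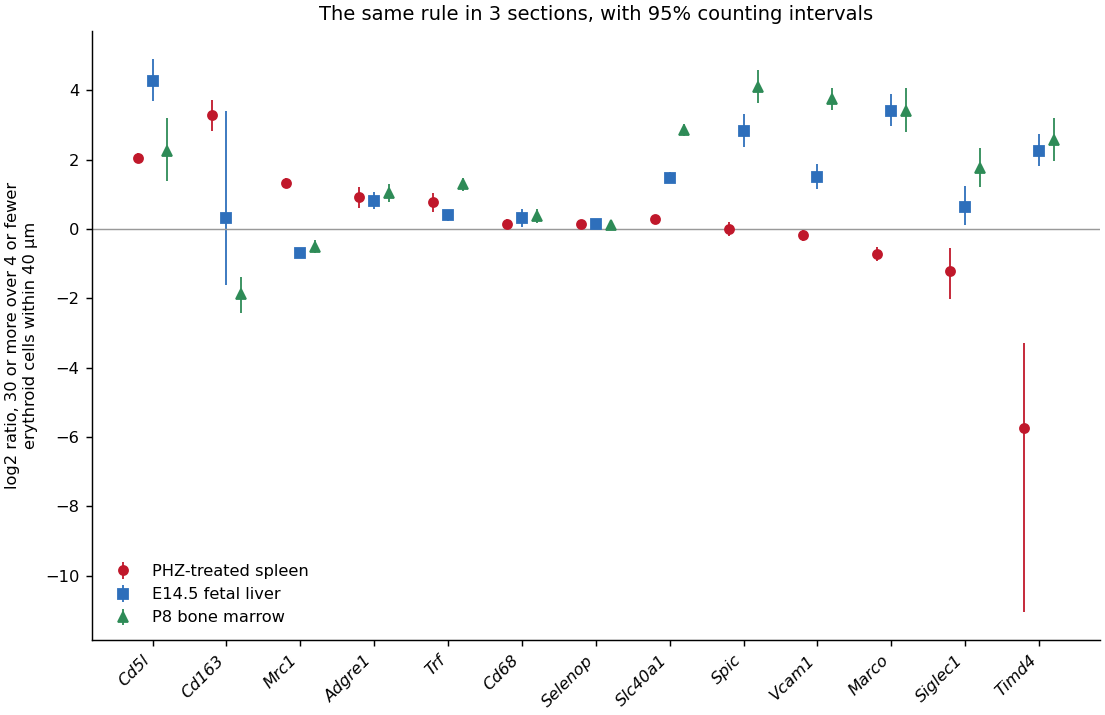
Log2 ratio of macrophages with 30 or more over those with 4 or fewer erythroid cells within 40 µm (y axis) for 13 genes in the PHZ-treated spleen (circles), E14.5 fetal liver (squares) and P8 bone marrow (triangles), with 95% counting intervals and 1 section each. Cd5l and Adgre1 were above 0 in all 3 sections on this scale of shares. Timd4, Marco, Siglec1 and, by a small margin, Vcam1 were below 0 in the spleen alone.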

How the data were processed

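Xenium in situ hybridization was deposited for 6 sections, and the PHZ-treated spleen was analyzed here beside 3 others of the same panel. The E13.5 fetal liver and the 89-week bone marrow were not used here. Per the file headers, Xenium Onboard Analysis 1.7.1.0 decoded transcripts, expanded each nucleus into a cell outline and wrote the deposited counts per gene and cell, without normalization. The deposited transcript table gives each transcript a quality score and whether it overlaps a nucleus, and transcripts with a score of 20 or more rebuilt the deposited counts of the compared macrophages with 0 differences. Those that overlap the nucleus gave the counts over the nucleus. All cells were kept, and doublets were not called. Series columns without a sample numbered 0.

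Counts of each gene were summed over the cells of a group and divided by the summed counts of all genes outside the erythroid list, in Python 3.11.15 with numpy 2.4.6, scipy 1.17.1 and pandas 2.3.3. A gene was compared with 50 or more counts over both groups and called higher or lower past 1.5-fold. A gene with 0 counts in the smaller group was set at a floor of 3 counts there, and a ratio was given only if that bound stayed below 0. Means have exact Poisson, shares Clopper-Pearson and ratios exact conditional binomial 95% intervals. The steps were tested on simulated data. Each condition was 1 section, so no test was made. Depth was a median of 171.5 and 165 counts per macrophage in both groups.

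The macrophage rule, the gene lists and the named genes were chosen with earlier results of these data known. Named genes were the 10 highest and the 10 lowest ratios outside the erythroid and C1q genes with 200 or more counts, the members of the surface, iron and heme, regulator and growth factor lists, the rule genes, and the highest and lowest member of each other list, of which 1 gene is not reported here. Further genes named to complete a count or for their role were chosen after their values were seen. There were 23 alternatives in gates, radius, limits, denominator, transcripts, surroundings, position, depth, area and filters, 4 of them chosen after seeing the data.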

Additional observations from a re-analysis of the deposited data

Results flagged for a closer look

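In 5 genes named above, macrophages with 30 or more erythroid cells were at least 1.5-fold below those with 4 or fewer in the PHZ-treated spleen and at least 1.5-fold above them in both the E14.5 fetal liver and the P8 bone marrow, as shares of non-erythroid counts. This difference between sections was not tested, since each was 1 section. The share of all genes that did the same is not given here. The median log2 ratio of all genes with a ratio was -0.33 in the spleen. It was 0.39 over 233 genes in the fetal liver and 0.01 over 195 genes in the marrow. Timd4 had log2 ratios of -5.76 in the spleen, 2.26 in the fetal liver and 2.57 in the marrow. Marco had -0.71, 3.41 and 3.41, and its value in the spleen turned with the macrophages it was set against. C3 had -3.69, 2.64 and 1.94. Ppbp, a platelet chemokine, had -3.53, 2.22 and 3.96. Siglec1 had -1.23, 0.64 and 1.77, but in the fetal liver it averaged 0.335 counts per erythroid-rich and 0.389 per erythroid-poor macrophage, the opposite order.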

How the results depend on the processing

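The 58 higher and 118 lower genes were recounted under 23 alternatives, and of 48 named genes past 1.5-fold, 41 kept their direction under every alternative that gave a value. Direction is the sign alone, and the lowest ratio was 0.015 for Stmn1 and 0.20 for Adgre1. Combined changes were not counted here, and Adgre1 turned per macrophage against 1 to 4 erythroid cells. A minimum of 10 counts per gene gave 90 higher genes, from a larger set than the 308 genes. The numbers of genes compared under this and the following settings are not given here. These counts can therefore not be read as shares. Lower genes numbered 192 with C1q counts of 5 or more, 44 with 20 or more (12 erythroid-rich cells), 72 with an erythroid gate of 12 (30 cells), 51 with 40 or more against 0 erythroid cells (20 cells) and 51 with own Slc4a1 and Hemgn counts of 2 or fewer (18 cells), fewer cells leaving fewer genes with a ratio. The erythroid median of 3.20 was 2.88 with C1q counts of 20 or more, 2.76 with the erythroid gate of 12, 2.96 within 30 µm, 2.39 for 20 or more against 9 or fewer, 3.90 for 40 or more against 0, 2.65 over all genes, 2.60 per macrophage, 2.16 with own counts of 2 or fewer, 3.62 with 60 or more cells around, 2.97 with 5 or fewer lymphocytes, and 2.99 and 3.47 on the left and right side. Among alternatives chosen after seeing the data, it was 1.73 against 1 to 4 erythroid cells, and 4.69 and 2.86 against macrophages with 10 or more and 0 lymphocytes around. The surface median of -0.02 was -0.19 with C1q counts of 20 or more, 0.32 with the erythroid gate of 12, 0.40 for 40 or more against 0, -0.57 over all genes, -0.62 per macrophage, -0.18 over the nucleus, 1.06 with own counts of 2 or fewer and 0.32 against macrophages with 10 or more lymphocytes. Directions turned for 7 genes. With own counts of 2 or fewer, Folr2 had 1.41, Ikzf2 0.23, Il1b 0.81 and Pdgfb 0.013. With C1q counts of 20 or more, Pdgfa had 0.17, Pdgfb 0.65 and Trf -0.084. Il1b had 0.63 with the erythroid gate of 12 and 0.74 for 40 or more against 0. Against macrophages with 10 or more lymphocytes, Il1b had 0.30 and Marco 0.44. Ikzf2 had 0.15 against 1 to 4 erythroid cells and 0.19 against macrophages with 0 lymphocytes. The cause was not tested. The 158 erythroid-rich cells limit rare genes, and 63 of 308 genes had 0 counts there and 54 had 1 to 3.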
